A study of Homo sapiens with 6 samples.

Results

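AP-1 is a family of transcription factors that bind DNA as pairs of basic leucine zipper proteins. Its members studied here were the 4 FOS genes (FOS, FOSB, FOSL1 and FOSL2), the 3 JUN genes (JUN, JUNB and JUND) and 3 related genes (ATF3, MAFF and BATF3). They were found by gene symbol in the platform's probe annotation, which gave 14 probes for these 10 genes among 48803 probes on the array. RNA came from ES-2 cells, an established line from a human ovarian clear cell carcinoma. One group of 3 arrays held cells given a mir-22 mimic at 65 nM, a synthetic double-stranded RNA that acts in place of the natural microRNA. The other group of 3 arrays held cells given mimic negative control #2, which is modelled on worm microRNAs and whose dose is not stated for these samples. Cells of both groups carried the transfection reagent and were harvested after 48 hours, so the design compares levels at 1 late time in 1 cell line.

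FOS proteins cannot pair with one another and act as dimers with JUN proteins, which bind the TGANTCA element of many promoters, while ATF-containing pairs prefer TGACGTCA. FOS and FOSB are immediate early genes, switched on within minutes by growth factors and stress through MAP kinases and then quickly silenced. FOSL1, also called FRA-1, follows later, is stabilised by sustained ERK signalling and is known for driving migration and invasion in carcinoma cells. ATF3 and MAFF respond to stress, and MAFF, a small MAF protein, lacks an activation domain.

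The labels name the microRNA without an arm. The mature arms that RefSeq (GRCh38.p14, minus strand of chromosome 17) lists for it are shown because the seed, bases 2 to 8 and written in capitals, is the part that pairs with targets.
hsa-miR-22-3p: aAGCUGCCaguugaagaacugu
hsa-miR-22-5p: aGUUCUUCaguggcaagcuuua
Whether AP-1 transcripts hold sites for either seed was not analysed here.

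Intensities were normalised together with limma's neqc function and are given as log2 values. Probes that reached a detection p below 0.01 on 3 or more of the 6 arrays were kept. Of the 14 AP-1 probes 11 were kept, standing for 9 genes. The other 3, a probe of BATF3 and 2 of the 3 probes of ATF3, were too dim. Arrays detected 17465 to 19244 probes. Control mimic replicate 3 stood apart from the other arrays, with correlations of 0.980 and 0.981 to the other controls against 0.997 between those. Of the epithelial markers, KRT7, KRT8, KRT18 and MUC1 were detected on every array and KRT19, EPCAM and CDH1 on none. Of the mesenchymal markers, VIM, FN1, CDH2 and COL1A1 were detected on every array and COL1A2 on none. The ovarian clear cell markers NAPSA and PAX8, the leukocyte genes PTPRC and CD3E and the endothelial genes KDR and VWF were detected on none, while ARID1A, the immune genes CD14 and CD68 and the endothelial genes CDH5 and PECAM1 were detected on all. The summed raw intensity of each of these marker lists overlapped between the groups. For the epithelial list the overlap was narrow (1402 to 1623 with the mir-22 mimic, 1331 to 1414 with the control mimic). It was also narrow, in the other direction, for the endothelial list (814 to 950 with the mir-22 mimic, 930 to 1039 with the control mimic). The mesenchymal sums were 19424 to 25758 with the mir-22 mimic and 14414 to 20833 with the control mimic. In the test described below, 1 mesenchymal marker was called and no marker of the other lists.

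In the cells given the mir-22 mimic FOS was higher and FOSL1 was lower, and no other AP-1 probe passed the test. FOS was 1.70-fold higher and FOSL1 1.88-fold lower. The 9 other kept probes lay between a log2 fold change of -0.19 and 0.44 and did not pass. Calls rested on limma's moderated test with Benjamini-Hochberg adjustment over all 18732 kept probes and an adjusted p threshold of 0.05. It called 2 of the 11 AP-1 probes, beside 6.46% of all kept probes. The calls were 1 higher and 1 lower, beside 3.04% higher and 3.42% lower among all. Because the members were chosen with earlier results of these data known, these shares are a description only. The median log2 fold change of the 11 probes was 0.12, against -0.01 over all kept probes.

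**Figure D1:**
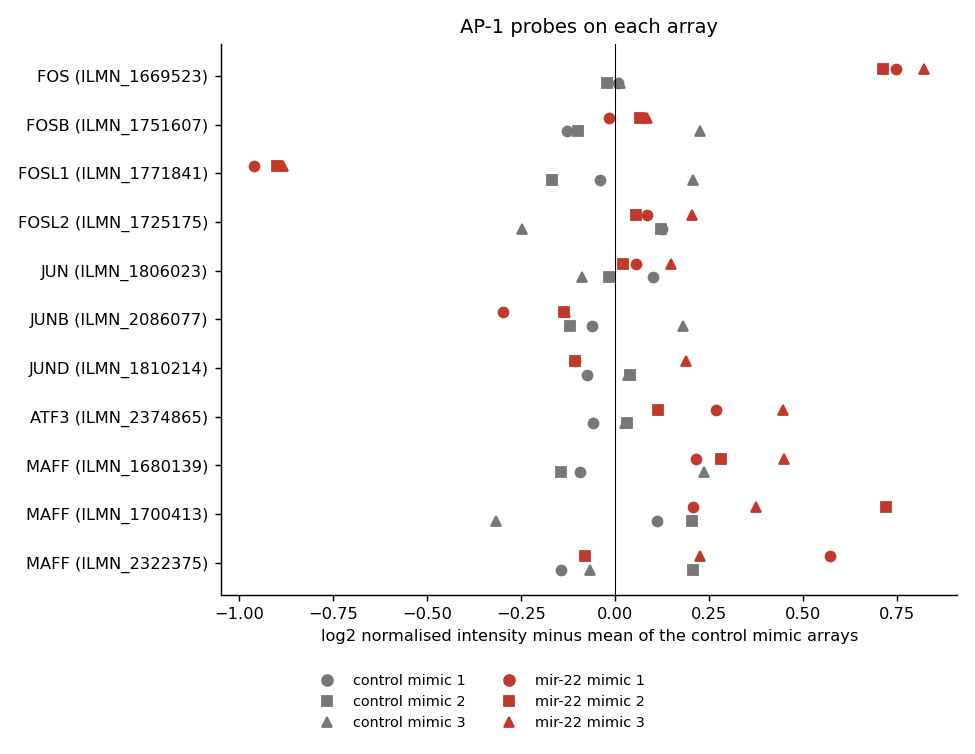
Each row is 1 kept AP-1 probe and each point 1 array, with the horizontal axis giving its log2 normalised intensity minus the mean of the 3 control mimic arrays. Red points (mir-22 mimic) lie well to the right of grey points (control mimic) for FOS and well to the left for FOSL1, while for most other probes the colours lie close together or mix.

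FOS encodes the founding member of the family, a strong activator when paired with JUN. Its probe read 6.30, 6.27 and 6.38 (log2) on mir-22 mimic replicates 1, 2 and 3. On control mimic replicates 1, 2 and 3 it read 5.56, 5.54 and 5.57. The mimic arrays were all high, the controls all low, and the groups were separated by a gap much wider than the spread inside either one. The log2 fold change was 0.76 ± 0.09 (moderated SE, n = 3 per group; limma adjusted p = 0.00485), with an interval at 95% of 0.55 to 0.97. That placed FOS 241st from the top among the 18732 kept probes.

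The same separation stood in the raw scanner values of FOS. Raw intensity was 117.8, 113.4 and 99.5 on mimic replicates 1, 2 and 3, and 72.0, 70.7 and 67.1 on control replicates 1, 2 and 3. Raw values also carry the brightness of the whole array. Its upper quartile was 96.2, 94.9 and 80 on those mimic arrays and 85.6, 85.2 and 78.1 on those controls. Each value is the mean of 39 to 58 beads, with a standard error over beads of 3.08% to 5.60%. The signal is dim, close enough to background that its fold change depends on how background is treated. It was 0.45 without background correction, against 0.76 in the main fit. With median scaling, which changed the normalisation between arrays and kept the background correction, it was 0.87. The probe passed the threshold under all 15 alternatives tried.

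FOSL1 moved the other way. Its product lacks the activation domain of FOS and pairs with the same JUN proteins. The probe read 10.71, 10.77 and 10.79 (log2) on mimic replicates 1, 2 and 3, against 11.63, 11.50 and 11.88 on control replicates 1, 2 and 3. The 3 mimic arrays lay within a narrow band below every control, and control mimic replicate 3 was the highest of all. The log2 fold change was -0.91 ± 0.12 (moderated SE, n = 3 per group; limma adjusted p = 0.00664), with an interval at 95% of -1.18 to -0.64. FOSL1 was 50th from the bottom among the kept probes.

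In raw intensity FOSL1 fell from 3105, 2867 and 3315 on control replicates 1, 2 and 3 to 1963, 1989 and 1594 on mimic replicates 1, 2 and 3. No control array came near any mimic array. The standard error over beads was 1.99% to 4.26%. Without mimic replicate 1 the adjusted p was 0.0529 (log2 -0.89), and without mimic replicate 2 it was 0.05 (log2 -0.92), which ended the call, while without control mimic replicate 3 it was 0.00101 (log2 -0.81). FOS and FOSL1 differed from each other by 1.68 in log2 fold change, a distance that does not depend on a shift common to all probes of an array.

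**Figure D2:**
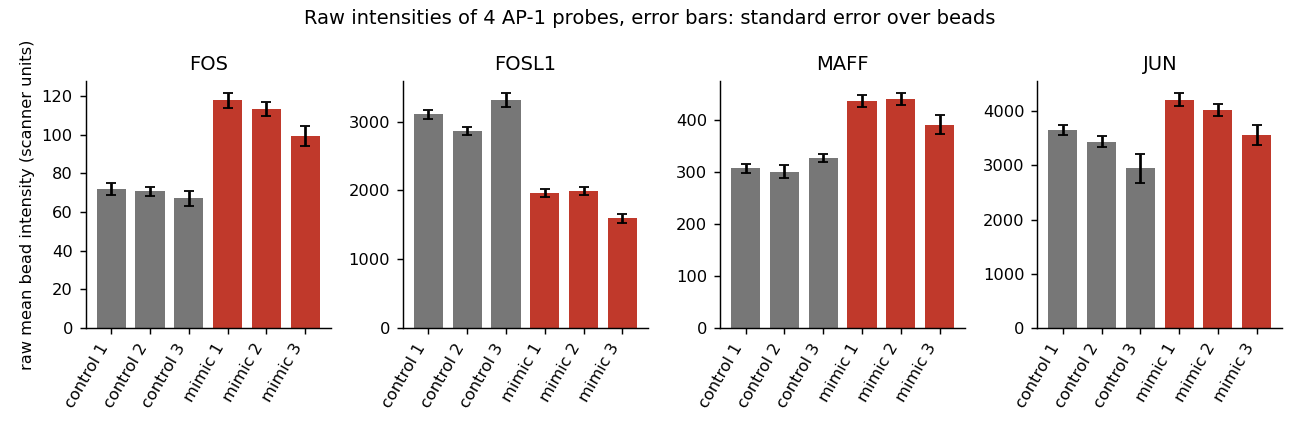
Bars give the raw mean bead intensity, in scanner units and from 0, on each array for FOS, FOSL1, MAFF (probe ILMN_1680139) and JUN, with error bars for the standard error over beads. Before any normalisation, mimic arrays are above controls for FOS (99.5 to 117.8 against 67.1 to 72.0) and MAFF, and below them for FOSL1. JUN bars of the groups overlap. Raw values are not adjusted for the brightness of whole arrays, and after normalisation the groups overlapped for this MAFF probe.

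The other FOS genes did not pass. FOSB, an immediate early gene closely related to FOS, read 7.34, 7.42 and 7.44 on mimic replicates 1, 2 and 3 and 7.23, 7.26 and 7.58 on control replicates 1, 2 and 3. Control mimic replicate 3 was above every mimic array and the other controls were below them, so the groups overlapped. FOSB had a log2 fold change of 0.05 (interval at 95% -0.23 to 0.32, limma adjusted p = 0.855). Without control mimic replicate 3 it was 0.16 (adjusted p = 0.266).

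FOSL2, also called FRA-2, lay near the detection limit. It read 5.02, 4.99 and 5.14 on mimic replicates 1, 2 and 3 and 5.06, 5.06 and 4.69 on control replicates 1, 2 and 3, the last not above background. The groups overlapped, with 1 low control array. Its log2 fold change was 0.12 (interval -0.18 to 0.41, limma adjusted p = 0.629) and turned to -0.01 without control mimic replicate 3.

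The JUN genes, which supply the partners of the FOS proteins, did not pass either. JUN read 11.83, 11.80 and 11.93 on mimic replicates 1, 2 and 3 and 11.88, 11.76 and 11.69 on control replicates 1, 2 and 3. JUND, the member expressed most evenly across cell states, read 10.82, 10.82 and 11.11 on the mimic arrays and 10.85, 10.96 and 10.96 on the controls, in the same order of replicates. Groups overlapped for both. The log2 fold change of JUN was 0.08 (interval -0.15 to 0.30, limma adjusted p = 0.688) and that of JUND was -0.01 (interval -0.27 to 0.25, adjusted p = 0.976). For these probes the intervals leave room for changes of up to 0.30 in log2, and do not show equal levels.

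JUNB, which can oppose JUN at some promoters, read 5.92, 6.09 and 6.09 on mimic replicates 1, 2 and 3 and 6.16, 6.10 and 6.40 on control replicates 1, 2 and 3. After normalisation every mimic array was below every control, the nearest arrays by a narrow margin. Raw intensities, not adjusted for the brightness of whole arrays, overlapped. They were 95.8, 102.4 and 86.1 on mimic replicates 1, 2 and 3 and 95.8, 93.0 and 96.8 on control replicates 1, 2 and 3. JUNB had a log2 fold change of -0.19 (interval -0.45 to 0.08, limma adjusted p = 0.368), and it was -0.10 without control mimic replicate 3. In normalised values, mimic and control arrays were fully separated for 5 of the 11 AP-1 probes, beside 31.3% of all kept probes. Of these, FOS, ATF3 and a MAFF probe were higher and FOSL1 and JUNB lower.

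ATF3 and MAFF had log2 fold changes above 0 and did not pass. The detected ATF3 probe read 5.57, 5.42 and 5.75 on mimic replicates 1, 2 and 3 and 5.24, 5.34 and 5.33 on control replicates 1, 2 and 3. All mimic arrays were above all controls, but they were spread over a range wider than that of the controls. This gave a log2 fold change of 0.28 ± 0.11 (moderated SE, n = 3 per group; limma adjusted p = 0.185). The other ATF3 probes were detected on no array, with raw intensities of 39.5 to 42.6 and 37.5 to 41.0, and one of these carries the same transcript accession as the detected probe.

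MAFF had 3 kept probes for 1 transcript accession, and all lay above 0. The brightest (ILMN_1680139) read 8.46, 8.53 and 8.69 on mimic replicates 1, 2 and 3 and 8.15, 8.10 and 8.48 on control replicates 1, 2 and 3. Control mimic replicate 3 overlapped with the mimic arrays, and the other controls lay below them. The log2 fold change was 0.32 ± 0.13 (limma adjusted p = 0.191, n = 3 per group), and without control mimic replicate 3 it was 0.44 (adjusted p = 0.02), past the threshold, where 14.1% of all kept probes passed. With array weights it was 0.40 (adjusted p = 0.00607), also past the threshold, where 23.5% of all kept probes passed.

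The second MAFF probe (ILMN_1700413) read 6.70, 7.22 and 6.87 on mimic replicates 1, 2 and 3 and 6.61, 6.70 and 6.18 on control replicates 1, 2 and 3. The lowest mimic array and the highest control were almost level. Its log2 fold change was 0.44 ± 0.18 (limma adjusted p = 0.187, n = 3 per group), and that of the last probe was 0.24 ± 0.17 (adjusted p = 0.455). Standard errors over beads reached 11.8% for the second probe, against at most 4.81% for the brightest. The probes thus shared a direction and differed in size and in noise.

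BATF3, a JUN partner best known from dendritic cells, was above background on control mimic replicate 1 and on no other array. Its raw intensity was 47.8, 49.2 and 44.5 on mimic replicates 1, 2 and 3 and 51.7, 49.5 and 48.9 on control replicates 1, 2 and 3. With every mimic array under the detection limit, no fold change is given.

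**Figure D3:**
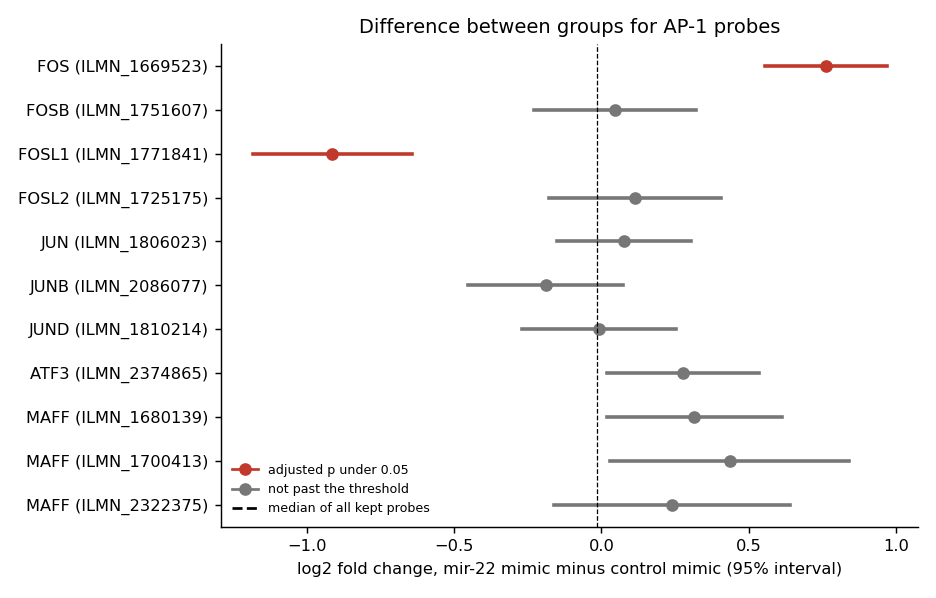
Points give the log2 fold change (mir-22 mimic minus control mimic) of each kept AP-1 probe and lines its 95% interval from limma, not adjusted for the number of probes; the dashed line is the median of all kept probes at -0.01. FOS (0.76) and FOSL1 (-0.91), in red, passed the adjusted threshold, and the grey probes did not.

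Median scaling moved the fold changes upward. With median scaling in place of quantile normalisation the median of all kept probes moved up by 0.10, the share of called probes that were higher went from 47.0% to 73.1%, and 3.35% of all kept probes were called. FOS was then at 0.87 (limma adjusted p = 0.0119) and FOSL1 at -0.77 (adjusted p = 0.0205), so both kept their direction and their call. JUND turned from -0.01 to 0.13 and JUN went from 0.08 to 0.22, neither of them called.

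**Figure D4:**
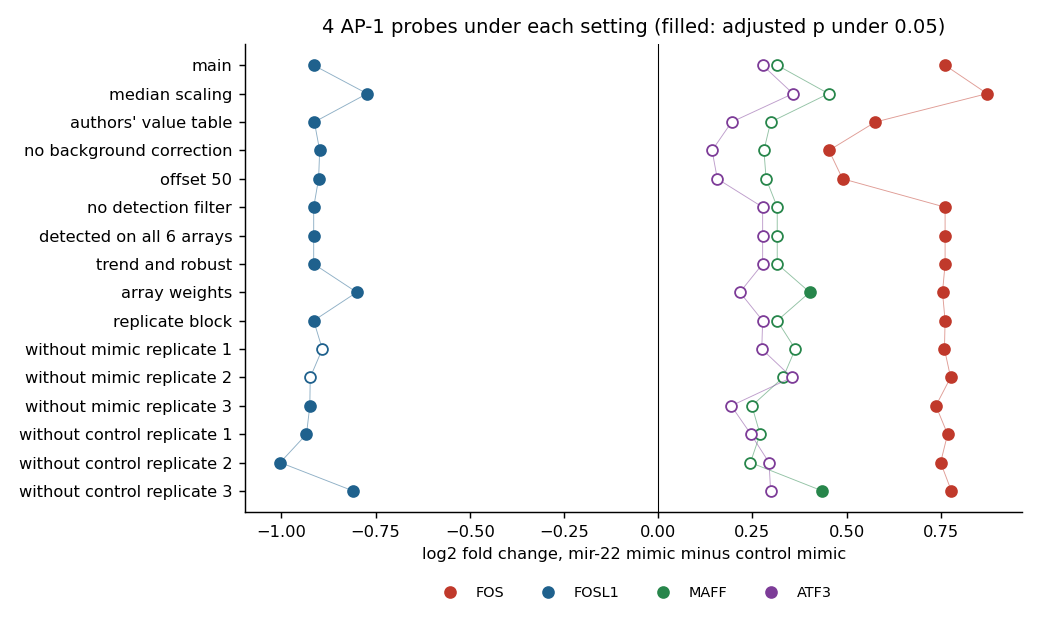
The horizontal axis is the log2 fold change of FOS, FOSL1, MAFF (ILMN_1680139) and ATF3 (ILMN_2374865), and each row is 1 setting of the processing or 1 array left out, with filled points where the adjusted p was under 0.05. FOS is filled in every row, FOSL1 in all but those without mimic replicate 1 or 2, MAFF only with array weights and without control mimic replicate 3, and ATF3 in none.

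Promoters of the AP-1 genes hold AP-1 or CRE elements of their own, through which members of the family are known to regulate one another. RefSeq promoter windows (GRCh38.p14, 250 bases before to 50 after a start) were at hand for 8 of the 10 genes, in 10 windows; none was used for FOSL1 and BATF3. They were searched on both strands for TGANTCA, TGACGTCA, its shorter part TGACG, the variant TGACATCA and the CArG box, the element bound by SRF. TGACG was in 7 of the 10 windows, beside 24.6% of all 35116 windows of that length. The full TGACGTCA, which includes TGACG, was in those of JUND and MAFF (1.85% of all windows), TGACATCA in those of JUN and ATF3 (2.61%), TGANTCA in that of FOSL2 (7.71%), and the CArG box in none (1.29%). Bases more than 250 before a start were not searched, so this does not show that FOS or another member lacks a CArG box.

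The windows of FOS, which rose, and of FOSB, JUN and MAFF, which did not pass, are shown for comparison, with matches in capitals. FOS is at chr14:75278578-75278877 (plus strand), FOSB at chr19:45467746-45468045 (plus), JUN at chr1:58783998-58784297 (minus) and MAFF, at the first of its starts, at chr22:38201744-38202043 (plus).
FOS: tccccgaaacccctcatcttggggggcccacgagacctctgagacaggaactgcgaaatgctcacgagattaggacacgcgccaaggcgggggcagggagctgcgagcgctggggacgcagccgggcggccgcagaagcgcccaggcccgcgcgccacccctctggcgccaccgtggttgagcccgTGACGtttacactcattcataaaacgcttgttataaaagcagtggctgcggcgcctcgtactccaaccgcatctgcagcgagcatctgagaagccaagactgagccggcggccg
FOSB: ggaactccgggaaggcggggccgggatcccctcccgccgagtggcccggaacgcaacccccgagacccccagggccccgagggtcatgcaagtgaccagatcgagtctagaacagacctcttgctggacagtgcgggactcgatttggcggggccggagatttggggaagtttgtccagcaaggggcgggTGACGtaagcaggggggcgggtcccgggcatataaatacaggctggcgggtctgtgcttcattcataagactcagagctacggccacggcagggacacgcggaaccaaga
JUN: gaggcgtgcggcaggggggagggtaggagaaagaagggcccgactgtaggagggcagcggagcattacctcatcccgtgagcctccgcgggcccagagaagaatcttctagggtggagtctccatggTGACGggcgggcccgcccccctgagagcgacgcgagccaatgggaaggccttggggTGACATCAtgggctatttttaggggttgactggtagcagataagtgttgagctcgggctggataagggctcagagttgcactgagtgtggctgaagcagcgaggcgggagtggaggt
MAFF: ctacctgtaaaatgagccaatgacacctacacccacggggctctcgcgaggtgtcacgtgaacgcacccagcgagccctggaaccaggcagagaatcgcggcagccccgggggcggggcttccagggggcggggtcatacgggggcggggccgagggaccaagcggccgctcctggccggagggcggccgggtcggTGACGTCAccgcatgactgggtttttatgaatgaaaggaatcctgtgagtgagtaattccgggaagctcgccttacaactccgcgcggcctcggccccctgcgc
Counted from the start site, with -1 the base before it, the match in FOS begins at -64 and that in FOSB at -60. JUN has its TGACATCA at -67 and MAFF its TGACGTCA at -54. FOS and FOSB thus hold the short element at almost the same place; whether their fold changes differ was not tested.

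The genes around AP-1 are described by the brightest kept probe of each gene, beside 7.61% of 11133 genes called (3.47% higher, 4.14% lower) and a median log2 fold change of -0.02 over all genes. The lists were chosen with earlier results of these data known, so their counts are a description and no test against these shares. Other immediate early genes, induced with FOS after stimulation, had 7 members called higher and none lower among the 24 measured, with a median of 0.22. DUSP1, the phosphatase that switches MAP kinases off, rose by a log2 of 0.72 ± 0.09 (limma adjusted p = 0.0066, n = 3 per group). The GTPase gene RHOB rose by 1.05 (adjusted p = 0.0108, above background on 2 of 3 control arrays) and the prostaglandin synthase gene PTGS2 by 0.62 (adjusted p = 0.0182), with its dimmer probe at 0.50 and not called. The call of PTGS2 was lost with median scaling (limma adjusted p = 0.0596) and in 4 of the 6 ways of leaving out an array. That of DUSP1 was lost without mimic replicate 1 and without mimic replicate 2, and that of RHOB without any 1 mimic array. ARC, known from neurons, was above background on all mimic arrays and on none of the control arrays, so it was kept only through the group where it is high. Its mimic mean was 1.57-fold above a floor at the detection limit of the control arrays, a value that leaves out sampling error. The call of ARC was lost without mimic replicate 2. With detection required on all 6 arrays, which leaves out ARC and RHOB, the list had 5 members called higher. With each array left out in turn, the number called higher ran from 0 (without mimic replicate 2) to 9 (without control mimic replicate 3, with 1 lower).

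Genes known from other systems as AP-1 targets had 6 members called higher and none lower among the 26 measured, with a median of 0.20. IL11 had the largest fold change of them, at 1.47 ± 0.13 (limma adjusted p = 0.00266, n = 3 per group), followed by IL6 at 1.22 and the urokinase gene PLAU at 0.65. PTGS2 (0.62) is counted in this list as well as among the immediate early genes. The chemokine gene CXCL8 was at 0.57, and its other probe was at 0.41 and not called. Of these calls that of IL11 alone held whichever array was left out. Leaving out mimic replicate 1, 2 or 3, the list had 1 member called higher each time, and without control mimic replicate 2 it had 2. Without control mimic replicate 3 it had 8 higher and 1 lower, and with the replicate number as a block 5 higher and 1 lower.

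Upstream regulators of AP-1, from RAS to the MAP kinases, had 2 of 36 measured members called lower and none higher, with a median of -0.12. The called genes were RPS6KA1, a kinase that phosphorylates FOS (-0.80 ± 0.16, limma adjusted p = 0.0285, n = 3 per group), and ITCH, a ubiquitin ligase of JUN proteins (-0.61, adjusted p = 0.0117). Both lost their call without any 1 mimic array or without control mimic replicate 2. With the replicate number as a block 4 were lower and 1 higher, and without control mimic replicate 3 there were 5 and 4. With median scaling 1 was lower and 1 higher, the median was -0.03, and ITCH was at -0.47 and not called (adjusted p = 0.13). SRF, the activator of FOS through the CArG box, was singled out after its values were seen. It read 9.44, 9.40 and 9.74 on mimic replicates 1, 2 and 3 and 9.96, 10.04 and 10.42 on control replicates 1, 2 and 3, all mimic arrays below all controls. Its log2 fold change was -0.62 ± 0.15 (limma adjusted p = 0.0529), which missed the threshold. It passed under 8 of the 15 alternatives, among them the replicate number as a block (adjusted p = 0.0173) and the fit without control mimic replicate 3 (log2 -0.47, adjusted p = 0.0282), and over all 15 the adjusted p ran from 0.00201 to 0.207.

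**Figure D5:**
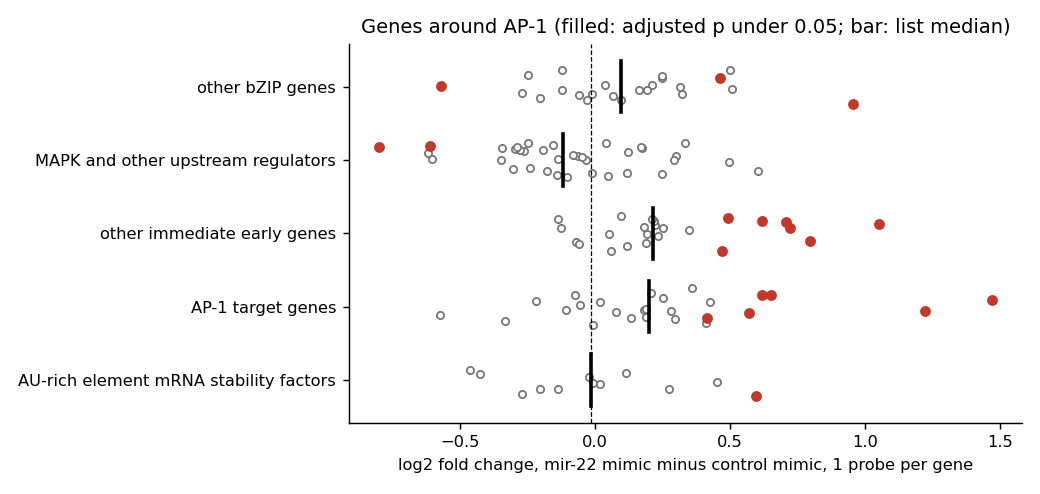
Each point is the log2 fold change of 1 gene (mir-22 mimic minus control mimic, brightest kept probe), in 5 lists of genes around AP-1, with filled red points past the adjusted threshold, a bar at each list's median and a dashed line at the median of all kept probes. Called genes among immediate early genes and AP-1 targets all lie to the right, and those among upstream regulators to the left.

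Other basic leucine zipper genes had 2 of 23 measured members called higher and 1 lower, with a median of 0.10. CREB5, a partner of JUN that binds CRE elements, rose by 0.96 ± 0.12 (limma adjusted p = 0.00664, n = 3 per group). It read 8.26, 8.18 and 8.25 on mimic replicates 1, 2 and 3 and 7.47, 7.30 and 7.05 on control replicates 1, 2 and 3, with no overlap, and lost its call only without mimic replicate 1. Its dimmer probe was at 0.34 and not called. XBP1, of the unfolded protein response, rose by 0.46 (limma adjusted p = 0.0262), with its dimmer probe at 0.49 and not called (adjusted p = 0.0566). BATF, a relative of BATF3, was lower at -0.57 (limma adjusted p = 0.0426). The calls of XBP1 and BATF were lost in 5 of the 6 ways of leaving out an array. That of BATF was also lost with median scaling (limma adjusted p = 0.053). Without control mimic replicate 3 the list had 4 higher and 1 lower. Factors that bind the AU-rich elements of short-lived transcripts such as FOS had ZFP36L2 alone called higher (0.60, adjusted p = 0.036) among 12, with a median of -0.01 that was 0.13 with median scaling. With the replicate number as a block 1 was higher and 2 were lower, as without control mimic replicate 3, and the call of ZFP36L2 was lost in 5 of 6 leave-outs.

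By distance between centred log2 profiles over the 6 arrays, the genes nearest to FOS among 11133 were SPRY1 (distance 0.08, log2 fold change 0.75), DUSP1 (0.10, 0.72) and CBX1 (0.10, 0.79). SPRY1 and DUSP1 encode inhibitors of growth factor and MAP kinase signalling. Those nearest to FOSL1 were GEMIN2 (distance 0.09, log2 fold change -0.86), C22orf39 (0.10, -0.85) and RAB5B (0.12, -0.97). All 6 passed the test, which was nearly fixed in advance because they were picked for profiles like those of called genes. Nearness over 6 arrays in 2 groups describes these arrays only.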

How the data were processed

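Per the labels' protocols, total RNA of ES-2 cells was hybridised to 6 1-colour bead arrays, 3 per group. Per the submitters' processing notes, BeadStudio summarised the beads. Per the file headers, the deposited files give each probe's mean intensity, bead spread, bead count and a detection score, a fraction from 0 to 1; detection p was taken as 1 minus it. The intensity values were not background-subtracted. A normalised value table deposited by the authors names the probes, and its 48803 rows matched the array files 1 to 1 by their order of values over the arrays.

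Intensities were processed with neqc (offset 16, quantile, log2) in limma 3.58.1 under R 4.3.3, which compresses dim probes. One linear model with empirical Bayes was fitted on all 18732 kept probes and was tested on simulated data. Its intervals use the moderated degrees of freedom. Array number limits the precision. The labels call the replicates biological but do not say whether they were separate cultures. P-values therefore reflect only how these arrays vary, and part of that variation may be technical.

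Groups share replicate numbers. Deviations from the group means correlated at 0.334, 0.135 and 0.434 in same-numbered pairs, all above 0.1, so from the data alone the numbers may pair the arrays. The main fit did not use this pairing, and the replicate number was a block only in an alternative fit. Mimic 1 with control 2 (0.315) and mimic 2 with control 1 (0.181) were above the same-numbered pair 2, so not every array was closest to its own number. Blocked values are given where they change a call.

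All AP-1 probes are reported. Of each list up to 4 called genes per direction with the lowest adjusted p are named, and the 3 nearest profiles of the most raised and most lowered called member. The floor for ARC is the higher of its own signal and the lowest detected signal on each control array, averaged over these arrays. Members and lists were chosen with earlier results of these data known.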

Additional observations from a re-analysis of the deposited data

How the results depend on the processing

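FOS passed the threshold under all 15 alternatives (log2 fold change 0.45 to 0.87, adjusted p at most 0.0446). FOSL1 kept its sign under all 15 (-1.003 to -0.77) and passed under 13. The count of AP-1 probes called ran from 1 to 3 as each array was left out, and was 3 with array weights, where MAFF passed (0.40). All kept probes called numbered 1210, against 628 with median scaling, 4405 with array weights, and 133 to 2639 as each array was left out. With the replicate block 2 AP-1 probes and 1577 of all kept probes were called, and no other call of a named gene changed than those given above. Signs turned only where no call was made. JUND was at 0.129 with median scaling and at -0.104 to 0.0415 as arrays were left out, FOSB at -0.0186 to 0.157 and FOSL2 at -0.00816 to 0.177 likewise, and FOSL2 at -0.0201 with array weights. The causes were not tested. Of 225 list counts and medians under alternatives 71 moved. FOS and ATF3, near background, were at 0.45 and 0.14 without background correction, and the array number limits what the other members can show.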
